A study of Pararge aegeria with 4 samples.

Results

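Homeobox genes encode transcription factors that bind DNA through a homeodomain, and the Hox genes among them specify position along the head-to-tail axis of the embryo. Butterflies and moths carry, next to zerknullt (zen) in their Hox cluster, a further group of homeobox genes called Special homeobox (Shx) genes, which arose by duplication of the insect Hox3 gene. Shx transcripts are known from the ovary and from the serosa, the extra-embryonic membrane that surrounds and protects the embryo in the egg. Transcripts that a mother lays down in the egg act before the embryo transcribes its own genes, so the ovary is where such a supply would be made.

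Homeobox genes were found by the text of the annotation in the ovary transcriptome assembled from both populations of *Pararge aegeria*, the Speckled Wood. A contig was taken if its best P. aegeria protein hit was named Shx, if any annotation column held the word homeobox, homeodomain or homeotic, or if its whole symbol was zen or cad. This found 50 of the 17636 contigs that the authors kept after annotation. These 50 belonged to 37 of 9873 Trinity genes (the groups of contigs that the assembler treats as 1 gene). The 37 genes hold 55 listed contigs in all. Ranks, percentiles and shares of all Trinity genes below are among these 9873 annotated genes, not the whole assembly. By their annotation 25 of the 37 encode homeodomain proteins, from 22 named genes, since cut was assembled as 3 Trinity genes and abd-A as 2. A further 10 were grouped as other proteins that were found through one of the words, such as the bromodomain protein female sterile (1) homeotic. The remaining 2 match a homeobox gene at the nucleotide level only.

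The mRNA data comprised 1 library from St Hubert (Belgium) and 1 library from Zonza (Corsica), each from the ovaries of a pair of mated females of a laboratory stock, taken while egg laying was at its height and freed of adhering tissue and fat. The Zonza stock was newly founded, while that of St Hubert had been kept for years, so population, time in the laboratory and library cannot be told apart. Both females of a population were in the same library, and with 1 library per population the differences have no replicate check and no test was made. The authors deposited FPKM per contig (fragments scaled to the length of the contig and to all mapped fragments of the library), which were summed here per Trinity gene.

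Low FPKM values moved in steps of whole fragments, which put the depth at about 21600000 mapped fragments in St Hubert and 20400000 in Zonza. For a contig of 1 kb, an FPKM of 0.0534 in St Hubert and 0.0565 in Zonza is then worth 1 fragment. Intervals below are 95% intervals from these estimated fragment counts and cover counting error only, not the difference between animals. Log2 ratios are of Zonza over St Hubert on the log2(FPKM + 1) scale, which understates differences of low genes.

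Sequences of the homeobox contigs were not used here. The deposited data do hold the sequences of miRNAs that are linked to these genes, either because their own genes lie within insect Hox clusters (miR-10, miR-993 and miR-iab-4) or, for miR-989, because the study paired it with ShxD by computed target prediction. That prediction was not analysed here. The mature products are given from 5′ to 3′, with the seed (bases 2 to 8) in capitals.
miR-989, 3′ arm: gUGUGAUGugacguaguggaag
miR-10a, 5′ arm: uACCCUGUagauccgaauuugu
miR-993, 5′ arm: uACCCUGUagauccgggcuuuu
miR-iab-4, 5′ arm: aCGUAUACugaauguauccuga
The 5′ products of miR-10a and miR-993 share the seed ACCCUGU, whereas miR-989 and miR-iab-4 have other seeds. Of the 373413 miRNA reads listed for St Hubert, 473 came from the miR-10a precursor and 4611 from that of miR-993. The Zonza counts, 1049925 reads in all, held 658 and 8301. The seed-sharing 5′ arm gave 4000 of the miR-993 reads in St Hubert but only 76 of those of miR-10a, whose 3′ arm gave 397. miR-iab-4, which in *Drosophila melanogaster* targets the Hox gene Ultrabithorax, had 33 reads in Zonza and was not listed for St Hubert, where the lowest listed total was 19 reads. At its Zonza share of 0.00314% it would fall below that total in St Hubert, so no difference can be read from its absence. Its 27 reads on the 5′ arm in Zonza were also below the cutoff that the study set for expression there. miR-989 was read 288099 times in St Hubert and 873884 times in Zonza, which was the large majority of all miRNA reads in both.

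3 Shx genes were present in the ovary, and they differed in level by far more than counting error. ShxC and ShxD were well expressed in both libraries, ShxB was near the limit of detection, and no contig could be assigned to ShxA. The names rest on protein hits to the P. aegeria Hox cluster, because an earlier ovary transcriptome had named the same ShxC contig special homeobox protein 1 and the ShxD contig zerknullt.

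ShxC (c14668_g1, 1 contig of 1435 nt) had an FPKM of 79.11 in St Hubert (75.9 to 82.5) and 93.27 in Zonza (89.6 to 97.0). It was the most abundant of the 37 genes in both libraries. It stood at percentile 90.5 of all Trinity genes in St Hubert and 92.3 in Zonza, and at rank 829 of 9873 by mean FPKM. The level in Zonza was 1.18 times that in St Hubert (1.11 to 1.25), a log2 ratio of 0.23.

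ShxD (c17102_g1, 1 contig of 1273 nt) had an FPKM of 30.54 in St Hubert (28.4 to 32.8) and 24.11 in Zonza (22.2 to 26.2). The direction was thus opposite to that of ShxC. From 752 and 561 estimated fragments, the level in Zonza was 0.790 of that in St Hubert (0.707 to 0.882), a log2 ratio of -0.33. Both differences exceed counting error and neither came near 2-fold. ShxD ranked 3493 by mean FPKM, at percentile 68.7 in St Hubert and 60.6 in Zonza. ShxC was 2.59 times as abundant as ShxD in St Hubert (2.38 to 2.82) and 3.87 times in Zonza (3.53 to 4.25), and these intervals do not overlap.

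ShxB (c21715_g1, 501 nt) had an FPKM of 0.63 in St Hubert, from about 5 fragments, and 1.20 in Zonza, from about 9. A difference between the libraries was not detectable at this depth, since the interval of the ratio runs from 0.574 to 7.24. ShxD was 48.5 times as abundant as ShxB in St Hubert (20.7 to 150) and 20.1 times in Zonza (10.5 to 44.2). One further contig (c23631_g1, 241 nt) had a Hox cluster protein as its protein match and hit the genomic record that holds ShxA and ShxB together. It cannot be assigned to either gene, and it had an FPKM of 1.68 in St Hubert and 0.89 in Zonza, from about 4 and 2 fragments.

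Hits to the genomic records of the P. aegeria Hox cluster alone do not show a Hox transcript. Of 72 contigs that hit these records, 10 had a Hox or Shx protein as their protein match. Another 13 matched some other protein and 49 matched none. Among them, 15 contigs of 222 to 1866 nt hit a record of Shx genes without matching an Shx protein. The highest FPKM among these 15 was 27.98 in St Hubert and 30.54 in Zonza. They were not counted as Shx transcripts, and whether any is part of one was not tested.

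A contig named Hox3 here (c2450_g1, 1109 nt) was low. The name rests on matches in other species. They are hox-d3 as its protein match and *D. melanogaster* bicoid, itself a Hox3 descendant, as its hit among ovary and egg proteins. The contig hit no record of the P. aegeria Hox cluster, and no contig bore the whole symbol zen. Whether it is the zen gene of this species is therefore not settled. Its FPKM was 2.80 in St Hubert (2.13 to 3.61) and 1.06 in Zonza (0.653 to 1.61). St Hubert was thus the higher library, by 2.65 times on fragments (1.59 to 4.60), with a log2 ratio of -0.88. ShxD was 10.9 times as abundant as Hox3 in St Hubert (8.36 to 14.5) and 22.7 times in Zonza (14.7 to 37.0). Hox3 and ShxB stood apart in St Hubert, where Hox3 was 4.44 times as abundant (1.80 to 14.2), but not in Zonza, where the ratio was 0.883 (0.388 to 2.19).

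**Figure D1:**
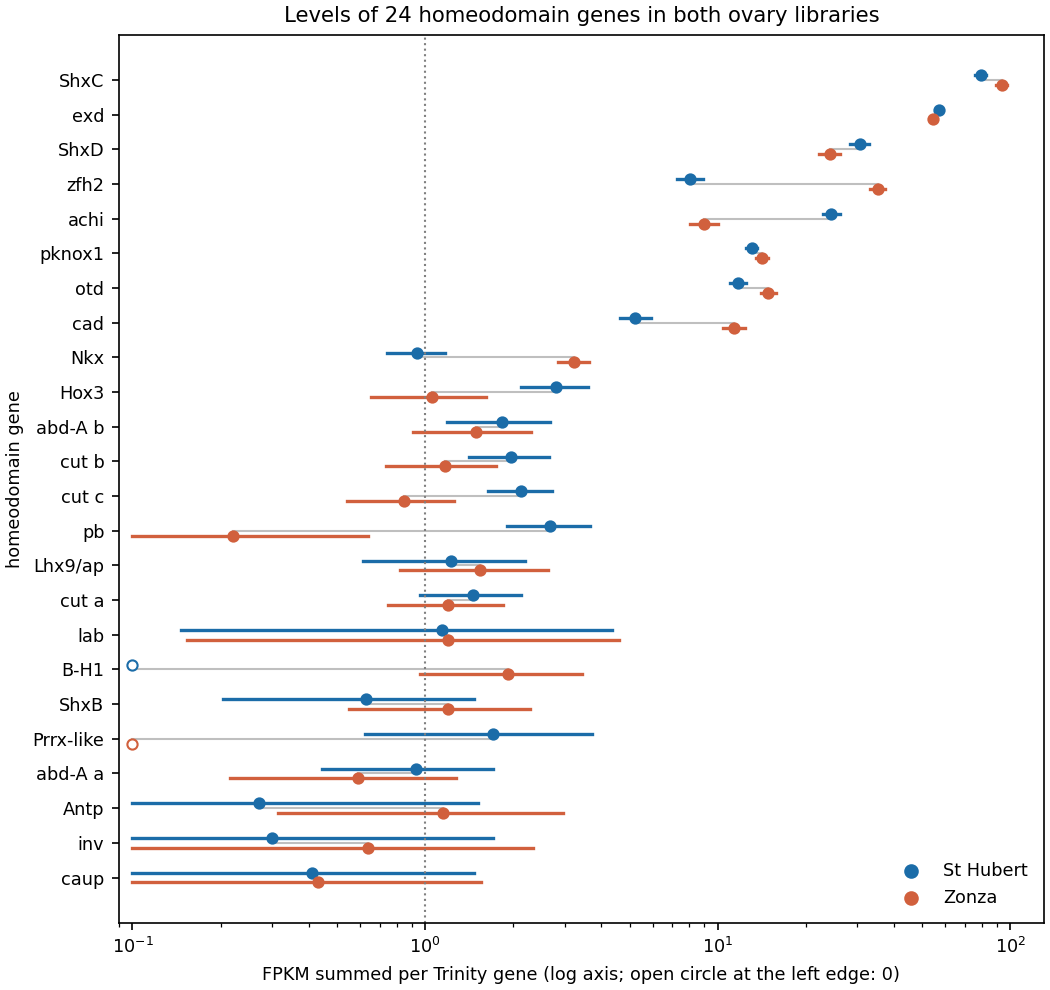
FPKM of 24 homeodomain genes in the St Hubert (blue) and Zonza (orange) ovary libraries, on a log axis and ordered by mean. Bars are 95% counting intervals, cut off at an FPKM of 0.1, open circles are values of 0 and the dotted line is an FPKM of 1. ShxC, exd and ShxD lead, the 8 genes from ShxC down to cad all lie above an FPKM of 5 in both libraries, and the rest have means of at most 2.08.

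The Hox genes proper, which specify segment identity in the embryo, were all at low levels, and most were assembled only in pieces. Labial (lab, 210 nt) had an FPKM of 1.14 in St Hubert and 1.20 in Zonza, from about 2 fragments in each. abd-A, an abdominal Hox gene, was found as a piece of 633 nt (0.93 and 0.59) and a piece of 791 nt (1.83 and 1.49). With both pieces merged its level in Zonza was 0.765 of that in St Hubert (0.443 to 1.30), so no difference was detectable.

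proboscipedia (pb), the Hox gene of the mouthparts, had the largest log2 ratio in favour of St Hubert among the members that passed the filter. Its Trinity gene c9571_g1 had an FPKM of 2.68 in St Hubert and 0.22 in Zonza, a log2 ratio of -1.59, from about 39 and 3 fragments. It passed the filter on mean FPKM through St Hubert alone. A search of the annotation made after these values were seen found 3 more Trinity genes that match pb without any of the words of the rule. Their FPKM in St Hubert were 2.60, 2.36 and 2.35, and in Zonza 0.00, 0.49 and 0.14. All 4 pieces were higher in St Hubert, together with 119 against 11 fragments, a ratio of 10.2 (5.51 to 21.0). Pieces of 1 transcript come from the same library and are not replicates of the population.

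Antennapedia (Antp), the Hox gene of the thorax, showed the reverse. The member c2314_g2 (303 nt) had an FPKM of 0.27 in St Hubert and 1.15 in Zonza, too low for the filter, and 3 more Trinity genes were found by the same later search. The 4 pieces had FPKM of 0.00 to 0.56 in St Hubert and 1.15 to 2.20 in Zonza, and each was higher in Zonza. As with pb, the pieces come from the same library and are not replicates of the population. Together they held 7 fragments in St Hubert and 38 in Zonza, a ratio of 5.75 (2.54 to 15.3).

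**Figure D2:**
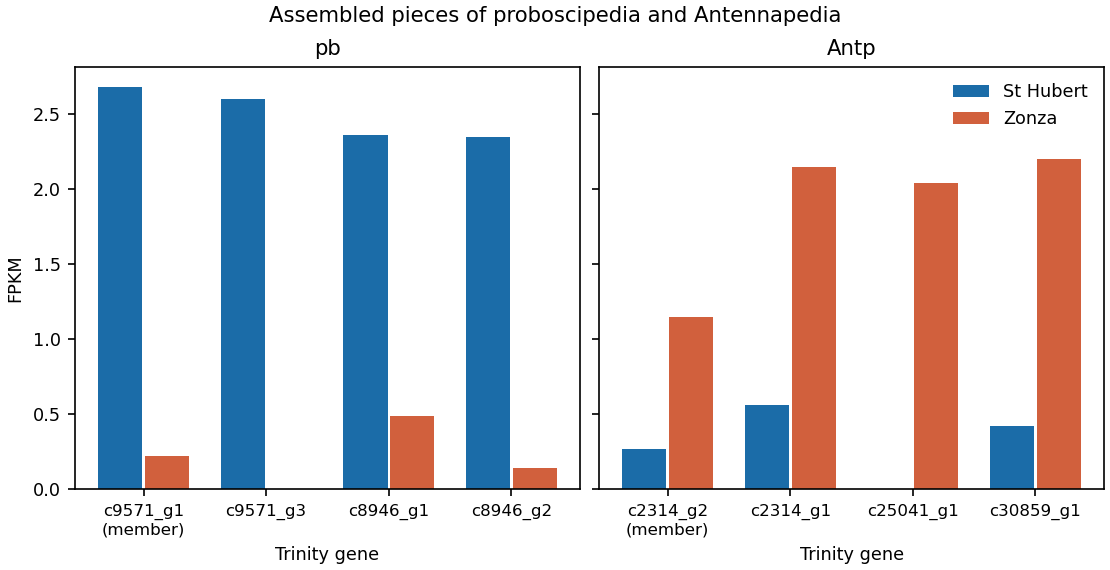
FPKM of the 4 Trinity genes that match proboscipedia (pb, left) and the 4 that match Antennapedia (Antp, right) in St Hubert (blue) and Zonza (orange), 1 library each. Every piece of pb is higher in St Hubert and every piece of Antp is higher in Zonza, all at an FPKM under 3.

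caudal (cad), which directs the formation of posterior segments and in *D. melanogaster* is supplied to the egg as maternal mRNA, was better expressed than any Hox gene. Summed over its 2 contigs its FPKM was 5.23 in St Hubert and 11.36 in Zonza. Zonza was 2.16 times as high on fragments (1.86 to 2.52), while the log2 ratio of 0.99 fell just short of the 2-fold threshold. All of the excess was on 1 contig, of 2442 nt, at 0.00 in St Hubert and 7.43 in Zonza, whereas the other, of 2462 nt, had 5.23 and 3.93. orthodenticle (otd), a head-patterning gene of the paired-like class, had 11.73 in St Hubert and 14.89 in Zonza, 1.27 times as high (1.16 to 1.38). otd exceeded cad in both libraries, by 2.24 times in St Hubert (1.96 to 2.58) and 1.31 times in Zonza (1.18 to 1.45).

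The TALE class, whose members include partners of the Hox proteins, held abundant genes. extradenticle (exd), which binds DNA together with Hox proteins, was the second most abundant homeodomain gene, with an FPKM of 57.16 in St Hubert and 54.58 in Zonza. The level in Zonza was 0.949 of that in St Hubert (0.919 to 0.981). The sum hides an exchange of contigs of nearly the same length. Contig i4 carried 90.5% of the St Hubert sum but 4.95% of that of Zonza, where i1 carried 55.8% and i3 35.1%. Such exchanges are common in this assembly. The leading contig differed between the libraries in 53.9% of the 4113 Trinity genes with 2 or more contigs and an FPKM of at least 1 in both, and in 4 of 11 such homeobox members (among them exd, cad and pho). A contig that matches a PBX gene of the silk moth *Bombyx mori* (PBX is the name of the exd family in vertebrates) had no protein match and an FPKM of 36.92 in St Hubert and 20.56 in Zonza, a log2 ratio of -0.81.

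**Figure D3:**
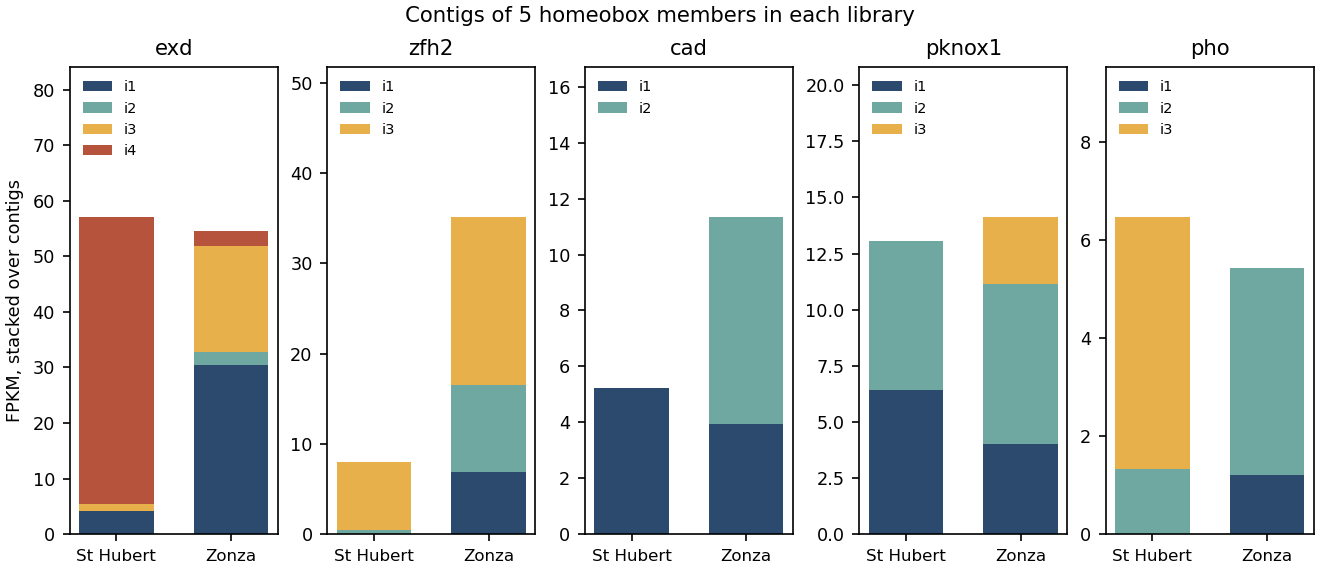
FPKM of each contig (i1 to i4) stacked per Trinity gene for exd, zfh2, cad, pknox1 and pho, with St Hubert and Zonza as the bars of each panel and a separate axis per panel. The exd bars are about equally high (57.16 and 54.58) but made up of different contigs, while the zfh2 bar is higher in Zonza (35.20 against 8.02).

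achintya (achi), a TGIF-type gene that in *D. melanogaster* is needed for sperm formation, had an FPKM of 24.44 in St Hubert and 9.00 in Zonza. The log2 ratio was -1.35 and the fragments were 899 against 312, 2.72 times as high in St Hubert once depth is allowed for (2.39 to 3.11). Its main contig carried 95.8% and 92.7% of these sums, and both contigs were higher in St Hubert. pknox1, of the MEIS and PREP group, differed little, with 13.06 in St Hubert and 14.15 in Zonza. caup, of the Iroquois complex, had 0.41 and 0.43.

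zfh2, which encodes a protein with zinc fingers as well as homeodomains, had the largest log2 ratio in favour of Zonza among the members that passed the filter. Its FPKM was 8.02 in St Hubert and 35.20 in Zonza, a log2 ratio of 2.00, and the fragment ratio was 3.04 (2.70 to 3.43). All 3 of its contigs were higher in Zonza. The longest (2405 nt) had 7.57 and 18.71, while the others had 0.45 and 9.55, and 0.00 and 6.94. The last of these contigs carries no homeobox annotation of its own, and the log2 ratio was 1.70 without it. The fragment ratio of zfh2 is lower than its summed FPKM would give, because a fragment on a short contig adds more FPKM. An Nkx gene, related to the thyroid transcription factor of vertebrates (4040 nt), had 0.94 in St Hubert and 3.23 in Zonza. Its log2 ratio was 1.12 and its fragment ratio 3.44 (2.67 to 4.49). Like pb, it passed the filter on mean FPKM through 1 library alone, here Zonza.

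cut, which in *D. melanogaster* acts in the follicle cells that surround the oocyte, was assembled as 3 pieces, each lower in Zonza. Their FPKM in St Hubert were 1.46, 1.96 and 2.13, and in Zonza 1.20, 1.17 and 0.85. The last piece had a log2 ratio of -0.76, and over all 3 pieces St Hubert was 1.83 times as high (1.36 to 2.49).

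Among the remaining homeodomain genes, those of neural and appendage development, levels were close to the limit of detection. The Bar gene B-H1 (414 nt) had no fragment in St Hubert, where 3 fragments would give an FPKM of 0.494, and 1.92 in Zonza, from about 11 fragments. Taken as measured, Zonza was at least 3.88-fold higher against that floor per library, and with the counting error of both libraries the ratio was at least 2.66. A Prrx-like gene (296 nt) was the reverse, at 1.70 in St Hubert, from about 6 fragments, and 0.00 in Zonza, and with the counting error of both libraries the ratio of St Hubert over Zonza was at least 1.11. invected, the paralogue of engrailed, had 0.30 and 0.64. The LIM gene matching Lhx9 and apterous had 1.23 and 1.54. A contig matching homothorax at the nucleotide level only had 0.86 and 1.37, a log2 ratio of 0.35 that rests on about 2 and 3 fragments.

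None of the 10 other members had a homeodomain protein as its protein match, and none differed 2-fold as a sum over its contigs. The 3 Trinity genes for female sterile (1) homeotic, a maternally acting bromodomain protein that keeps Hox genes active in *D. melanogaster*, were among the most abundant members. The first had 27.48 in St Hubert and 30.24 in Zonza, the second 16.37 and 19.21, and the third 31.30 and 35.29. All were 1.10 to 1.17 times as high in Zonza on fragments, with a lowest interval bound of 1.04. The Polycomb group genes pleiohomeotic (pho) and polyhomeotic, which keep Hox genes silent, had 6.48 against 5.44 and 4.82 against 5.11. Most of the second sum came from a contig that matches another protein, TFIID subunit 12 (4.34 in St Hubert and 3.10 in Zonza). The contig that matches polyhomeotic had 0.48 in St Hubert and 2.01 in Zonza, a log2 ratio of 1.02 that by itself passed the 2-fold threshold. It passed the filter on mean FPKM through Zonza alone, and RSEM divides shared reads among the contigs of a gene. A pair of genes for homeodomain-interacting protein kinase 2 had 3.73 against 2.93 and 3.59 against 2.85. The rest were a pair of genes matching a *Dictyostelium* homeobox protein (12.63 against 8.59 and 9.28 against 10.28), and a zinc finger gene with 11.34 against 6.66. Of the pair, the second has a transport protein as its protein match, while the match of the first names no protein. The zinc finger gene had zinc finger E-box-binding homeobox 1 as its hit in the earlier transcriptome. Whether it or the first of the pair encodes a homeodomain is not settled.

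Over all members, 26 of 37 had an FPKM of at least 1 in both libraries, 70.3% against 90.9% of all Trinity genes. The members' median FPKM was 3.59 (St Hubert) and 2.93 (Zonza), while all genes had medians of 17.7 and 17.6. At a mean FPKM of at least 1, which 30 members reached, 2 were at least 2-fold higher in Zonza (zfh2 and Nkx) and 2 in St Hubert (pb and achi). Among all 9459 Trinity genes that passed the same filter, 5.20% were 2-fold higher in Zonza and 5.11% in St Hubert, so that the members' 6.67% each way was near the background. All 4 calls fell among the 18 homeodomain Trinity genes that passed, 11.1% each way, and none among the 12 others. This share rests on 2 genes each way and was not tested. Of these genes, pb and Nkx passed the filter through 1 library alone. Of the 14 members with a mean FPKM from 1 to under 5, 1 was called each way, where 10.0% of the 1535 such genes were called higher in Zonza and 10.0% higher in St Hubert. The median log2 ratio of the members was -0.11, and that of all genes tested was -0.01. With the homeobox genes that the words missed added and the pieces of a gene merged, 5 of 22 genes were 2-fold higher in Zonza and 3 in St Hubert, a count made after the values were seen. The calls gained were Antp, Ubx and dve in Zonza and Dfd in St Hubert. Dfd rests on about 4 and 1 fragments, and the interval of its ratio includes 1. Antp, dve and Dfd passed the filter through 1 library alone, as pb and Nkx did. Pieces were not merged for all Trinity genes, so this count has no background share.

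**Figure D4:**
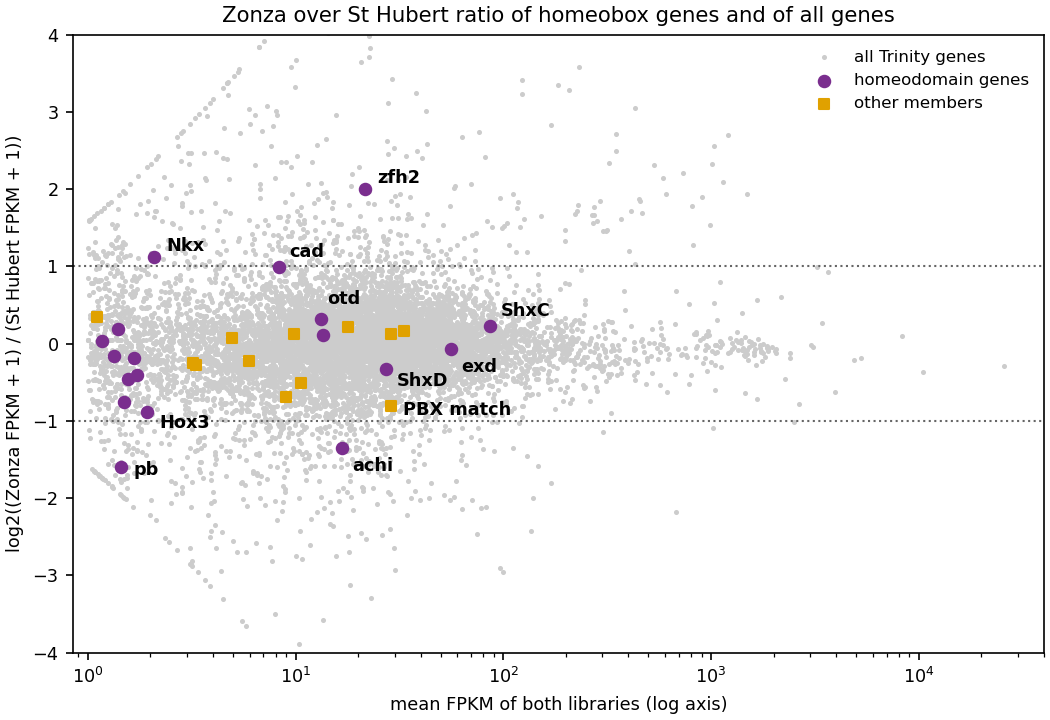
Log2 ratio of Zonza over St Hubert (vertical axis, on the log2(FPKM + 1) scale) against mean FPKM (log axis) for the homeodomain genes (purple), the other members (yellow) and all Trinity genes with a mean FPKM of at least 1 (grey). Dotted lines mark 2-fold, and 30 genes lie beyond the axis limit of 4. zfh2 and Nkx lie above the upper line, achi and pb below the lower one, and ShxC and ShxD near 0.

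Other genes of axis formation and of Hox gene control were looked up by name. Of 14 axis genes without a homeobox, 5 were found, as 7 Trinity genes (nanos, pumilio, staufen, torso-like and vasa), and none of these differed 2-fold. Their median log2 ratio was -0.21. All 12 Polycomb and trithorax group genes looked up were found, 2 of them being the members pho and polyhomeotic. None of the other 10 differed 2-fold, and their median log2 ratio was 0.15. With 5.20% and 5.11% of all genes called, lists this short would hold few calls or none, so these counts are no result about the lists. E(z), the histone methyltransferase of the Polycomb group, was the most abundant of these in both libraries (41.54 in St Hubert and 37.80 in Zonza).

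The libraries also differed in the RNA of some genes listed as cell type markers. Genes listed as follicle cell markers (15 genes, mainly chorion proteins) summed to an FPKM of 3343 in St Hubert and 10881 in Zonza. Of these, 11 of 15 were 2-fold higher in Zonza, against 5.20% of all genes tested, and all 11 were chorion genes. The chorion gene ChAP6 (log2 ratio 0.69), E1 (0.71) and the vitelline membrane protein VMP P30 (0.58) fell short of 2-fold. The shift is thus one of chorion transcripts and was not shown for follicle cells as a whole. The list also held the vitellogenin receptor yl, which acts in the oocyte. It was lower in Zonza (264.73 in St Hubert and 154.55 in Zonza). The sum of 4 fat body markers was 2953 and 7180, of which storage protein 1 was at 0 in St Hubert. Germ line markers (7 genes) summed to 1322 and 1081, 7 muscle markers to 572 and 497, and 3 nerve markers to 116 and 106, none with a 2-fold difference, and vasa, a marker of germ cells, was well expressed in both (82.17 in St Hubert and 67.86 in Zonza). The 4 haemocyte markers summed to 8.11 and 2.04 and were all higher in St Hubert. The 3 prophenoloxidase Trinity genes among them, of which a pair match the same gene, passed the 2-fold threshold, and like pb they passed the filter on mean FPKM through St Hubert alone. The part of these shifts in the homeobox differences was not tested, and fewer cells of a type and less RNA per cell cannot be told apart in such samples.

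The genes most like ShxD were sought by the distance in log2(FPKM + 1) over both libraries. The nearest that are not homeobox genes were a DOMON domain protein (30.34 in St Hubert and 23.92 in Zonza, distance 0.014), an uncharacterised protein (30.23 and 24.24, 0.016) and a clathrin coat assembly protein (30.09 and 24.53, 0.032). With only 2 libraries many genes lie as close, and 1057 Trinity genes were within a distance of 0.5. The nearest members were the PBX match (0.345) and a pair of the female sterile (1) homeotic genes (0.348 and 0.532).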

How the data were processed

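RNA from the ovaries was sequenced on an Illumina HiSeq 2000. The authors trimmed the first 16 bases, pooled the reads of both libraries into 1 Trinity assembly, estimated FPKM per contig with RSEM (Bowtie is named in the submitters' processing notes, and no version is given in the sources used here) and kept contigs with a BLAST hit at an E-value cutoff of 1e-05. They deposited FPKM without replicates, and raw read counts per miRNA arm from miRDeep2. No genome build applies.

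The FPKM columns named Belgium and Corsica were taken as St Hubert and Zonza. FPKM were summed per Trinity gene and compared on the log2 scale with a pseudocount of 1, for genes with a mean FPKM of at least 1 and a threshold of 2-fold. The authors' contig lengths and FPKM of genes with 1 contig gave the fragments behind each value. With 134 bases taken off the contig length, 98.3% of 180 low values in St Hubert and 99.1% of 213 in Zonza came out whole within 0.08 fragments, or within the rounding of the deposited values. Ratios have exact conditional intervals and levels Poisson intervals. For genes of several contigs RSEM divides shared reads, so these fragment numbers are estimates.

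Members named in full are every Shx, zen, cad and Hox gene, the 5 highest by mean FPKM, the 5 with the largest log2 ratio each way, and the 3 members and 3 other genes nearest ShxD. The members and lists were chosen with earlier results of these data known. Procedures were tested on simulated data. Scripts ran in Python 3.11.15 (scipy 1.17.1, numpy 2.4.6, pandas 2.3.3), and plots were drawn with matplotlib 3.10.9. Raw reads, contig sequences and target predictions were not analysed here, and 1 member is counted but not reported singly.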

Additional observations from a re-analysis of the deposited data

How the results depend on the processing

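The number of members at least 2-fold different between the libraries was 4. It was 7 with a pseudocount of 0.1, 2 with a pseudocount of 5, 2 at a mean FPKM of at least 5, 13 of 40 with single contigs as the unit, 9 at a threshold of 1.5-fold, 1 at 4-fold, and 8 with the missed homeobox genes added and merged, an alternative chosen after seeing the data. Centring, rescaling, matched contigs only, no filter and the named homeobox genes alone gave 4 to 6. The gene at 4-fold was zfh2, whose fragment ratio was lower, at 3.04 (2.70 to 3.43). The 26 members with an FPKM of at least 1 in both libraries became 16 at an FPKM of at least 5, 15 of the 25 named homeobox genes, and 15 of 29 after adding and merging. The shares of all genes or contigs under these alternatives were not computed. None of these counts can therefore be read as an excess or a lack among the members. The median log2 ratio of -0.11 ranged from -0.17 to 0.12 over its alternatives and took both signs, so no direction can be read from it. The log2 ratio of ShxD stayed between -0.34 and -0.29, and its rank moved to 3492 with matched contigs only and to 3015 of 17636 with single contigs. Of 180 alternatives for other single genes, 8 moved by more than the half-width of the counting interval and 1 changed sign (pknox1, from 0.11 to -0.21 with matched contigs only). That half-width is large for genes of few fragments, so these could hardly count as moved. B-H1 and the Prrx-like gene, at 0 in 1 library, have no such half-width and were counted as unmoved in advance. Their log2 ratios ran from 0.47 to 4.34 and from -4.17 to -0.42 with the pseudocount. With matched contigs only, the polyhomeotic gene reached 1.02. Of the 30 for genes past 2-fold, including B-H1 and the Prrx-like gene below the filter, 26 stayed past it. No paired analysis was possible because each population has 1 library. Depth limits the Hox pieces, ShxB and other genes of a few fragments, for which only differences of several fold could be seen.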

Other observations

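Some homeobox genes carry none of the words that chose the members and were found by their gene names in the annotation after values had been seen. defective proventriculus (dve), an atypical homeobox gene of gut development in *D. melanogaster*, had an FPKM of 0.35 in St Hubert and 5.76 in Zonza on a contig of 2682 nt. The 19 and 300 fragments behind these values give a ratio of 16.7 (10.5 to 28.2). Ultrabithorax (Ubx), a Hox gene of the hind thorax and abdomen, had 1.33 and 4.55, with a fragment ratio of 3.34 (2.24 to 5.10). Like Antp it was higher in Zonza. The eye gene sine oculis (so) had 0.96 and 1.81, a ratio of 1.88 (1.03 to 3.56).

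Other such genes were too low to compare. Deformed (Dfd), a Hox gene of the head, had 2.20 in St Hubert and 0.58 in Zonza from about 4 and 1 fragments. prospero (pros), a gene of neural precursors, had 1.35 and 0.48. The silk gland POU gene SGF-3, in 2 pieces, had a level of 1.03 in St Hubert and 0.922 in Zonza. The intervals of these ratios all include 1.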
